A study of Macaca fascicularis with 2 samples.

Results

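The ID and immediate early gene high cells were 531 of the 5311 tagged cells with under 5 reads of *KRT19* in a single-cell RNA-seq library of cynomolgus monkey tissue. They were chosen by a score, the mean of log2(reads per 1000000 reads + 1) over *ID1*, *ID3*, *PER1*, *JUN* and *HES1*, and the 10% of cells with the highest score were taken as members. The library pooled articular cartilage (AC) of the femoral condyle and the nucleus pulposus (NP) of a lumbar disc from 2 male wild type monkeys, both 3 years old, of which 1 gave NP and AC and the other AC. None of the tissue was treated, and all of it was cut or left as a gel, digested, stained with a sample tag and sorted as live cells before capture. The library held 5723 cells, of which 5674 carried a single tag (A951 to A954), 42 were doublets by their tags and 7 had no tag. The labels list 3 tissue samples for the 4 tags and do not pair the tags with tissues, so the tags were compared with each other but not as AC and NP. Another 363 tagged cells had 5 or more reads of *KRT19*, a keratin that marks notochordal cells, and were left out by the rule.

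ID proteins are helix-loop-helix factors without a DNA-binding part that hold back other factors of that family, and they are best known as direct targets of BMP signalling through SMAD proteins. Immediate early genes such as *JUN* and *FOS* are transcribed within minutes of a stimulus, without new protein synthesis, and many of their messages decay quickly. *PER1* is a repressor of the circadian clock that glucocorticoids and cAMP also induce, and *HES1* is a repressor best known as a target of Notch. In cartilage, chondrocytes are the main cells, and they make a matrix of type II collagen and aggrecan.

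The score of the members had a median of 5.78, against 1.66 in the 4780 remaining cells, and ran from 4.31 to 10.7. It had no gap at the limit, since the highest score outside was 4.30. The 25 cells just inside had a median of 4.34 and the 25 just outside 4.26. All 5 score genes had a read in 135 members (25.4%), 4 of them in 226 (42.6%), 3 in 153 and only 2 in 17, so that most members were not high for every gene of the score. Over all 5311 cells the score genes followed each other weakly. Spearman's rho over pairs of them lay between 0.153 (*ID3* and *HES1*) and 0.220 (*ID1* and *ID3*), as a description of cells that share 1 library and differ in depth.

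Members were found under every tag. They made up 10.3% of the cells of A951 (95 of 921, exact 95% binomial interval 8.43 to 12.5%), 8.59% of A952 (74 of 861, 6.81 to 10.7%), 8.21% of A953 (113 of 1377, 6.81 to 9.78%) and 11.6% of A954 (249 of 2152, 10.2 to 13.0%). The intervals of A953 and A954 did not overlap, while those of A951 and A952 overlapped with both. These intervals cover counting error only. A954 was also the tag with the deepest cells, with a median of 220528 reads among its cells with low *KRT19*, against 176689 to 196333 under the other tags, so the shares were also computed with the score from reads thinned to 50000 per cell. Leaving out 200 shallower cells, the shares were then 10.0% under A951, 9.45% under A952, 8.32% (6.88 to 9.95%) under A953 and 11.2% (9.92 to 12.7%) under A954, and the intervals of A953 and A954 overlapped slightly.

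Members were deeper than the rest, with a median of 228290 reads and 4191 genes detected against 196848 reads and 3773.5 genes. Each member was therefore paired with the remaining cell of the same tag nearest in genes detected. Among the 531 matched cells the medians were 236605 reads and 4192 genes. Pairs differed by a median of 2 genes, and 6 pairs by more than 50. Mitochondrial reads were a median of 1.35% in members and 1.50% in matched cells. All levels below are pooled reads per 1000000 reads (rpm) of a group, not scaled to gene length, and each log2 ratio sets the members over the matched cells. With 1 library there are no replicates of a condition, cells are not replicates, and no p-value was computed. A gene was counted as more than 2-fold higher or lower when its pooled ratio was at least 2-fold and had the same direction under all 4 tags.

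The 5 score genes fixed the choice, so their levels are a description. *ID1* was at 488.3 rpm in members and 13.0 rpm in matched cells, *ID3* at 215.4 and 15.3 rpm, *PER1* at 353.6 and 24.9 rpm, *JUN* at 2743 and 202.5 rpm, and *HES1* at 72.2 and 6.42 rpm. A read of *JUN* was found in 99.6% of members and of *HES1* in 47.5%. When cells were chosen anew by only 4 of the genes, the gene left out was also higher in the chosen cells. The log2 ratio of the gene left out was 3.34 for *ID1*, 2.87 for *ID3*, 2.98 for *PER1*, 3.29 for *JUN* and 2.75 for *HES1*, and it was above 0 under all 4 tags for each of them. The lowest value under a tag was 1.00, for *HES1* under A952. The paper names all 5 genes among the markers of the same cluster, found in data that include this library. The genes were thus known to be high together in these cells, and the ratios of the genes left out are a description too.

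Of 11023 other genes with a read in at least 5% of the cells with low *KRT19*, 596 (5.41%) were more than 2-fold higher in members and 171 (1.55%) more than 2-fold lower. The median log2 ratio over all of them was 0.08, and its quartiles were -0.24 and 0.45. The count rests on pooled reads. By the difference of mean log2(rpm + 1) per cell, 162 genes were higher and 245 lower, so that the higher genes were 77.7% of the genes counted by pooled reads and 39.8% by log means. Without matching, they were 65.6%. Without the cells of A954, 936 genes were higher and 330 lower, and 262 and 275 were lower without A952 and A953, with 1 tag fewer that had to share the direction. The genes counted against a second set of matched cells were in part others, with 285 of the 596 higher genes (47.8%) and 68 of the 171 lower genes (39.8%) shared. The call of a single gene is therefore uncertain. Against the first and the second matched cells, cells matched on reads and all remaining cells alike, 192 higher and 52 lower genes were counted.

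**Figure D1:**
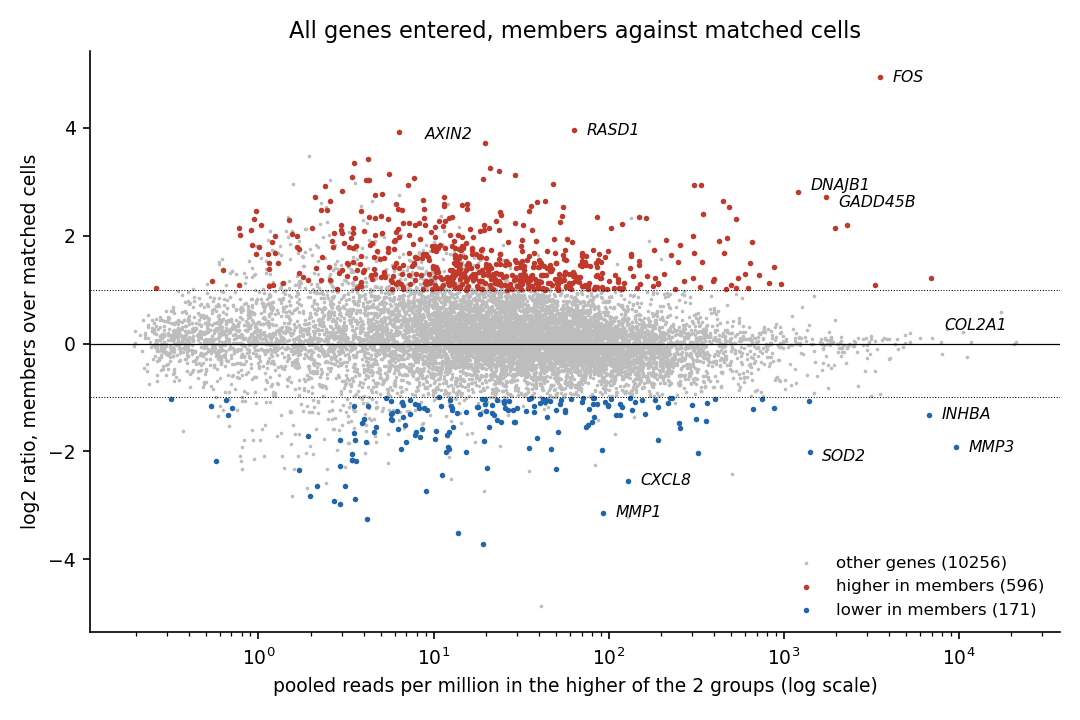
Log2 ratio of pooled rpm in members over matched cells (y axis) against the level in the higher of the 2 groups (x axis, log scale) for 11023 genes without the score genes. Red points are the 596 genes more than 2-fold higher in members and blue points the 171 lower ones, dotted lines mark 2-fold, and *FOS* stands at 4.94 and *MMP1* at -3.14.

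With the tags pooled, immediate early genes were the list with the highest median. Of 28 genes measured outside the score, 16 were more than 2-fold higher and 0 lower, a share of 57.1% against 5.41% of all genes, and the median log2 ratio was 1.23 against 0.08 over all genes. The median was 1.24 under A951, 1.78 under A952, 1.08 under A953 and 1.11 under A954. Notochordal markers (2.27) and proliferation genes (1.87) had higher medians under A952, and heat shock genes (1.31) under A954. The label of the cells names this list, and *JUN* and *PER1* of the score belong to the same class, so the list is not independent of the choice. Members of the class such as *JUNB*, *ATF3* and *IER2* are not among the genes counted in the file.

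*FOS*, the partner of *JUN* in the AP-1 transcription factor, had the largest ratio of the genes named outside the score. Under A951, A952, A953 and A954 it was at 2871, 4444, 5096 and 3054 rpm in members, and at 43.9, 97.7, 77.6 and 152.0 rpm in matched cells. The lowest member level over the tags stood above the highest matched level, with a log2 ratio of 4.94 and values of 4.33 to 6.04 by tag. Single cells overlapped, since the lower quartile of members was at 25.5 rpm and the upper quartile of matched cells at 31.9 rpm. A single read of *FOS* was common in both groups, in 98.7% (97.3 to 99.5%) of members and 90.8% (88.0 to 93.1%) of matched cells, and the difference lay in its amount. A total of 5 or more reads was found in 83.2% of members and 49.7% of matched cells, and the median cell was at 438.6 rpm among members and at 17.9 rpm among matched cells.

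*FOSB*, another AP-1 partner, was at 484.9, 608.1, 501.1 and 388.5 rpm in the members of the 4 tags and at 85.5, 95.4, 41.9 and 71.7 rpm in matched cells, a log2 ratio of 2.65. *DUSP1*, a phosphatase that turns off MAP kinases, was at 393.8, 279.1, 318.2 and 340.3 rpm against 41.1, 28.3, 32.3 and 51.5 rpm, a log2 ratio of 2.95. *KLF10*, a zinc finger factor induced early by TGF-beta, was at 252.7, 424.4, 249.8 and 314.4 rpm against 26.1, 65.2, 30.0 and 41.8 rpm, a log2 ratio of 2.94. For these 3 genes the lowest pooled member level stood above the highest pooled matched level over the tags. Single cells overlapped, with lower quartiles of members at 4.36, 0 and 2.11 rpm and upper quartiles of matched cells at 9.18, 6.28 and 7.08 rpm. These genes were picked for large ratios. The share of all genes without overlap over the tags was not computed, here or for other genes so described. *GADD45B*, a stress-inducible gene of MAP kinase control, was at 1743 against 263.7 rpm (log2 ratio 2.72), and the median member was at 520.7 rpm against 9.30 rpm in the median matched cell.

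The other 11 higher genes of the list, named after their values were seen, had log2 ratios of 1.16 to 2.41. They were the orphan nuclear receptors *NR4A1* (344.8 against 65.0 rpm, 2.41) and *NR4A2* (1.64), *CSRNP1* (2.31), *ZFP36*, which speeds the decay of AU-rich messages (2298 against 499.6 rpm), *EGR1* (343.0 against 120.3 rpm, 1.51), *BTG2* (1.68), *RHOB* (1.54), *KLF4* (1.43), *PPP1R15A* (1.29), *MCL1* (1.17) and *TRIB1* (1.16). In all, 24 of the 28 genes had a log2 ratio above 0. Of those not counted, *MYC* was at 534.8 and 284.3 rpm (0.91) and *IER3* at 895.3 and 853.9 rpm. *CCN1*, a matricellular protein gene that is also an immediate early gene, was at 2031 rpm in members and 2898 rpm in matched cells (log2 ratio -0.51), and *FOSL1* was at 263.5 and 277.9 rpm.

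**Figure D2:**
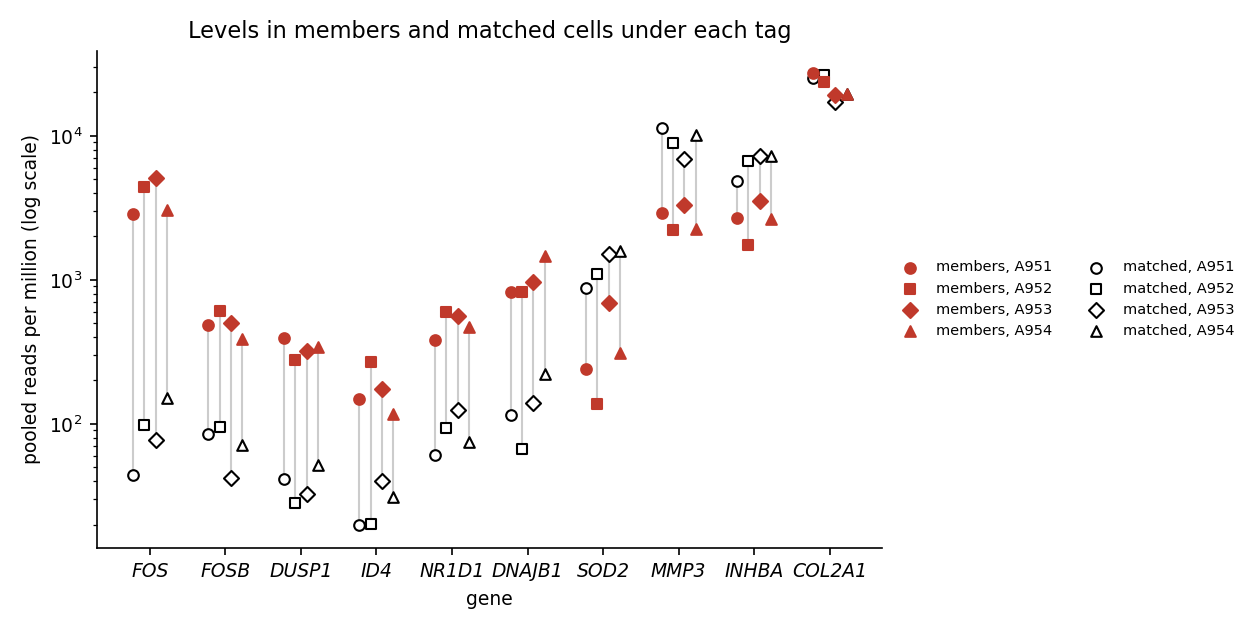
Pooled rpm (log scale) of 10 genes in members (filled red symbols) and matched cells (open symbols) under each of the 4 tags, with a grey line joining both groups of a tag. *FOS*, *FOSB*, *DUSP1*, *ID4*, *NR1D1* and *DNAJB1* were higher and *SOD2*, *MMP3* and *INHBA* lower in members under every tag, while *COL2A1* stayed within 0.18 of 0 on the log2 scale under each tag.

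Beyond the score, ID and BMP target genes were higher in part. *ID1* and *ID3* of the score belong to the same class, so this list is not independent of the choice. Of 13 genes measured, 4 were more than 2-fold higher (*ID4*, *DLX5*, *DLX3* and *SMAD7*) and 0 lower, a share of 30.8% against 5.41% of all genes, with a median log2 ratio of 0.58. *ID4*, the third ID gene of the members, was at 149.8, 268.2, 173.7 and 117.6 rpm under the 4 tags, and at 19.8, 20.3, 40.2 and 30.9 rpm in matched cells. Its lowest member level stood above its highest matched level over the tags (log2 ratio 2.34), and was read in 65.0% of members and 32.6% of matched cells. *ID2*, the remaining ID gene, was at 2272 rpm in members and 2345 rpm in matched cells (log2 ratio -0.05), with values from -0.79 under A952 to 0.91 under A951. The homeobox genes *DLX5* and *DLX3*, skeletal regulators induced by BMP, had log2 ratios of 2.23 each, at 29.3 against 6.24 rpm and 8.23 against 1.75 rpm, and *DLX3* ranged from 0.22 to 2.90 over the alternatives tried. *SMAD7*, the inhibitory SMAD that feeds back on both branches of the family, was at 76.3 against 38.0 rpm (1.01), and reached 2-fold in 13 of the 25 alternatives tried.

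The BMP pathway itself, its ligands, receptors, SMADs and extracellular inhibitors, had a share of higher genes near that of all genes. Of 25 genes measured, 1 was more than 2-fold higher (4%, against 5.41%), *BMPER*, a secreted modulator of BMP (114.3 against 55.7 rpm, log2 ratio 1.04), and 0 were lower, with a median of -0.17. *BMPER* had a log2 ratio of 0.73 over all remaining cells and reached 2-fold in 15 of 25 alternatives. The ligand *BMP2* was at 387.1 rpm in members and 761.5 rpm in matched cells (-0.98) and *BMP6* at 57.3 and 110.9 rpm (-0.95). *GDF10* was at 178.4 and 92.0 rpm (0.96), and the receptor gene *BMPR2* at 92.0 and 151.1 rpm (-0.71).

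Among 21 TGF-beta response genes, 2 were higher (9.52%, against 5.41% of all genes) and 2 lower (9.52%, against 1.55%), with a median of 0.10. *SKIL*, a corepressor that SMADs induce and that restrains them, was at 551.1 against 235.9 rpm (log2 ratio 1.22) and *TGFB3* at 73.7 against 34.6 rpm (1.09). *INHBA*, the subunit that forms activin A, was at 2689, 1757, 3520 and 2664 rpm in members of the 4 tags and at 4821, 6656, 7223 and 7222 rpm in matched cells. It was lower under every tag (-1.32), with a median of 417.4 rpm per member and 2730 rpm per matched cell. *TGFB2* was at 113.3 against 229.2 rpm (-1.02), and reached 2-fold in 11 of 25 alternatives.

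Clock genes were the list with the next highest median after immediate early and heat shock genes with the tags pooled. *PER1* of the score is a clock gene, so the clock list is not independent of the choice either. Of 19 measured, 8 were more than 2-fold higher, among them *TEF*, *NR1D1*, *BHLHE40*, *PER2*, *PER3*, *HLF* and *CRY2*, and 0 lower, a share of 42.1% against 5.41% of all genes. Their median was 0.86, and 0.94, 1.06, 0.53 and 0.81 under A951 to A954. *NR1D1*, the nuclear receptor REV-ERB alpha that represses the activator arm, was at 383.8, 602.3, 561.9 and 467.6 rpm in members of the 4 tags and at 60.9, 93.2, 125.5 and 74.8 rpm in matched cells. The lowest member level stood above the highest matched level, with a log2 ratio of 2.54 and a median of 273.2 rpm per member against 4.95 rpm per matched cell. *TEF*, a PAR-domain factor of clock output, was at 39.0 against 6.30 rpm (2.63), *BHLHE40*, a repressor of E-box genes, at 659.2 against 177.8 rpm (1.89), and *PER2*, the paralog of *PER1*, at 134.3 against 42.5 rpm (1.66). *PER2* had nearly the same ratio at each tag, from 1.57 to 1.86. The activators *ARNTL* (60.0 and 55.5 rpm, log2 ratio 0.11) and *CLOCK* (0.27) and the repressor *CRY1* (-0.15) stood near the median of all genes.

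Of 14 glucocorticoid response genes, 5 were more than 2-fold higher (35.7%, against 5.41% of all genes) and 0 lower, with a median of 0.39, and 2 of the 5, *DUSP1* and *PER2*, were also on the lists above. The others were *ZBTB16*, a zinc finger factor strongly induced by glucocorticoids (29.2 against 3.37 rpm, log2 ratio 3.12, 2.34 against all remaining cells), *KLF9* (31.1 against 11.6 rpm, 1.42) and *ANGPTL4* (50.4 against 23.1 rpm, 1.13). *FKBP5*, a sensitive target of the glucocorticoid receptor, was at 69.6 and 69.9 rpm (-0.01), *TSC22D3* at 117.2 and 62.4 rpm (0.91), and *ERRFI1* at 1858 and 3540 rpm (-0.93).

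Few Notch genes other than *HES1* passed 2-fold. Of 18 measured, 13 had a log2 ratio above 0 and 2 (11.1%, against 5.41% of all genes) were higher, *DTX1* (1.13 against 0.358 rpm) and *MAML3* (5.19 against 2.12 rpm), and 0 were lower. Both were low and uncertain, since *DTX1* was read in 9.42% of each group and had a log2 ratio of 0.86 over all remaining cells, and over the alternatives the lowest ratios were 0.060 for *DTX1* and 0.12 for *MAML3*. The list had a median of 0.34, and of 0.49, 0.47, 0.097 and 0.096 under A951 to A954. The ligand *JAG1* was at 16.4 and 13.2 rpm, and *NOTCH2* at 84.5 and 129.4 rpm. The related repressors *HEY1*, *HEY2* and *HEYL* were read in under 5% of cells and were not compared.

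Heat shock and chaperone genes had the second highest median with the tags pooled, 1.12. The median was 1.31 under A954 and 0.56, 0.41 and 0.64 under A951, A952 and A953. Under A951 and A952 the clock list and the ID and BMP target list had higher medians, and under A953 the ID and BMP target list (1.02) did. Of 15 genes measured, 8 were more than 2-fold higher (53.3%, against 5.41% of all genes) and 0 lower. *DNAJB1*, a cochaperone of HSP70 and a standard target of heat shock factor 1, was at 825.3, 817.3, 971.5 and 1469 rpm in members of the 4 tags and at 114.9, 67.4, 138.6 and 220.2 rpm in matched cells, a log2 ratio of 2.81. *HSPH1*, an HSP110 exchange factor, was at 855.4, 960.3, 980.4 and 2797 rpm against 330.5, 542.9, 211.2 and 535.1 rpm, a log2 ratio of 2.13. Both were highest in members of A954. *DNAJB4* (1.63) and *HSPA1L* (1.36) were also named by rule, and *BAG3* (719.9 against 299.7 rpm, 1.26), *CHORDC1* (1.20), *DNAJA1* (1.12) and *HSP90AA1* (3303 against 1551 rpm, 1.09) after their values were seen. Of the genes not counted, *HSPA5* of the endoplasmic reticulum was at 836.4 and 1090 rpm (-0.38), and *HSPA9* of mitochondria at 590.6 and 770.4 rpm (-0.38). The heat shock list spread more among members than among matched cells, with a standard deviation of its mean log2(rpm + 1) per cell of 1.59 against 1.15.

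Of 16 antioxidant and stress genes, 2 were higher (12.5%, against 5.41% of all genes) and 1 lower (6.25%, against 1.55%), with a median of -0.13. *TXNIP*, an inhibitor of thioredoxin, was at 302.5 against 76.2 rpm (log2 ratio 1.99, but 0.43 under A953), and *DDIT3*, the CHOP factor of the unfolded protein response, at 255.5 against 72.4 rpm (1.82, and 1.66 to 2.01 by tag). *NQO1*, a target of NRF2, was at 11.6 against 38.9 rpm (-1.74), and the NRF2 targets *SRXN1* (-0.69), *GCLM* (-0.61) and *TXNRD1* (-0.56) were below 0 without passing 2-fold. Of 22 hypoxia response genes, 3 were higher (13.6%, against 5.41% of all genes) and 0 lower, with a median of 0.27. They were *ANKRD37* (48.2 against 6.19 rpm, 2.96), the peptide hormone *ADM* (24.2 against 4.62 rpm, 2.39) and the demethylase *KDM3A* (33.9 against 14.8 rpm, 1.20), while the glycolysis genes *LDHA* (0.30), *PGK1* (0.25) and *ENO1* (0.11) were close to the median of all genes.

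NF-kB and cytokine genes had the lowest median of the lists with the tags pooled, -0.66 over 17 genes. None was higher and 3 were lower, a share of 17.6% against 1.55% of all genes. The median was -0.29 under A951 and -0.58 under A954, but 0.025 under A952 and 0.034 under A953, so the list as a whole was not lower under every tag. *SOD2*, the mitochondrial superoxide dismutase that NF-kB induces, was at 242.0, 136.4, 695.1 and 308.2 rpm in members of the 4 tags and at 876.3, 1105, 1523 and 1583 rpm in matched cells. The groups did not overlap over the tags (log2 ratio -2.01), and the median member was at 36.1 rpm against 490.2 rpm for the median matched cell. *NFKB1*, the gene of the p50 subunit, was at 143.8, 76.5, 142.0 and 140.5 rpm against 279.3, 270.2, 344.7 and 409.7 rpm, also without overlap (-1.43). *CXCL8*, the chemokine interleukin 8, was at 22.1 against 129.0 rpm (-2.55), but only 2.26% of members and 5.84% of matched cells held 5 or more of its reads, so few cells carried its level. The same holds for *CCL2* (13.9 against 128.7 rpm) and *CXCL1* (1.40 against 41.0 rpm), which did not have the same direction at all tags and were not counted. The list also had genes near a ratio of 1, with *NFKBIA* at 321.6 and 339.0 rpm (-0.08) and *PTGS2* at 377.3 and 341.8 rpm (0.14). The other lower genes named by rule included the chemokine *CCL7* (9.90 against 49.9 rpm, -2.34) and the receptor gene *IL18R1* (4.07 against 20.1 rpm, -2.30).

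Among 20 matrix proteases and inhibitors, 0 were higher and 2 (10%, against 1.55% of all genes) lower, with a median of -0.12. *MMP3*, stromelysin 1, was at 2890, 2217, 3295 and 2264 rpm in members of the 4 tags and at 11304, 8907, 6894 and 10174 rpm in matched cells, a log2 ratio of -1.92. Every cell of both groups had a read, and the median cell was at 303.9 rpm among members and 3415 rpm among matched cells. *MMP1*, interstitial collagenase, was at 10.5 against 93.1 rpm (-3.14), with 5 or more reads in 1.32% of members and 3.95% of matched cells. The inhibitors *TIMP1* (-0.13), *TIMP2* (0.08) and *TIMP3* (-0.68) did not pass 2-fold.

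The lower genes named by size also held genes of ribosome assembly, for which no list was fixed, so that they are given by their known roles only. *BYSL*, needed to build the small ribosomal subunit, was at 25.4 against 74.6 rpm (log2 ratio -1.56) and was read in 35.0% of members and 45.8% of matched cells. *PPAN-P2RY11*, a read-through gene that includes the ribosome assembly gene *PPAN*, was at 23.5 against 91.8 rpm (-1.97), and *CCDC86*, a nucleolar protein, at 16.5 against 51.2 rpm (-1.63). *TIMM8A*, a carrier of mitochondrial import, was at 12.0 against 46.7 rpm (-1.96). Among lower genes outside the rule, named after their values were seen, the nucleolar helicase *DDX21* was at 119.7 against 315.9 rpm (-1.40), and *RRS1* at 27.0 against 76.6 rpm (-1.51). The ribosomal protein genes stood near the median of all genes. None of 16 measured passed 2-fold, their median was 0.04, and *RPLP1* was at 7888 and 7778 rpm and *RPS12* at 4926 and 4882 rpm. Other lower genes named by size were the amino acid transporter *SLC7A2* (79.5 against 323.1 rpm, -2.02), the laminin chain *LAMB3* (55.5 against 191.7 rpm, -1.79), the chitinase-like *CHI3L2* (86.8 against 256.6 rpm, -1.56, but -0.06 under A952), *HIVEP3* (-1.93) and *ZNF35* (-1.55). *SLC7A2* was at -0.98, -0.39, -1.40 and -2.55 under A951 to A954.

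The higher genes named by size that were on no list above were *RASD1*, a RAS-like gene induced by dexamethasone (63.1 against 4.06 rpm, log2 ratio 3.96, read in 22.6% and 6.21% of cells), the semaphorin *SEMA4C* (21.1 against 2.22 rpm, 3.25), the zinc finger gene *ZBTB2* (23.5 against 2.56 rpm, 3.20), *HSD11B1L* (43.5 against 6.98 rpm, 2.64) and *TENT5C*, a poly(A) polymerase (36.1 against 6.17 rpm, 2.55). The levels of *SEMA4C* and *ZBTB2* in all remaining cells were 5.10 and 4.81 rpm, above those in the matched cells, and their log2 ratios over the remaining cells were 2.05 and 2.29.

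The matrix genes of chondrocytes showed little difference. Of 22 cartilage matrix genes, 0 were higher and 0 lower, with a median of 0.05, and 21 of them lay within 0.61 of 0. *COL2A1*, type II collagen, was at 27128, 23505, 19304 and 19601 rpm in members of the 4 tags and at 25074, 26552, 17188 and 19376 rpm in matched cells (log2 ratio 0.03). Members were higher under 3 tags and lower under A952. *BGN* was at 11824 and 11646 rpm, and *ACAN*, aggrecan, at 3979 and 3758 rpm. The gene outside that range was *EPYC* (0.162 against 0.810 rpm), which was read too little to place. With *COL2A1* and *ACAN* at these levels, members carried the defining transcripts of chondrocytes as the matched cells did.

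Of 24 superficial zone and fibrocartilage genes, 0 passed 2-fold in either direction, with a median of 0.14. *PRG4*, lubricin, was at 17458 against 11622 rpm (log2 ratio 0.59), with values of 1.61, 1.10, 0.56 and 0.22 under the 4 tags, and *CLU* at 10537 against 9126 rpm (0.21). Of 17 chondrocyte transcription factors, 3 were higher (17.6%, against 5.41% of all genes) and 0 lower, with a median of 0.37. They were *FOXA2* (19.2 against 2.33 rpm, 3.04), *FOXA3* (240.5 against 119.9 rpm, 1.00) and *MEF2C* (106.7 against 52.4 rpm, 1.03), each tied to hypertrophic chondrocytes. *FOXA2* was read in 15.3% of members and 9.23% of matched cells, with 5 or more reads in 7.91% and 1.51%. Over the alternatives its lowest log2 ratio was 0.48. *FOXA3* reached 2-fold in 11 of 25 alternatives. *SOX9*, the main chondrocyte factor, was at 580.3 against 324.9 rpm (0.84). Of 11 hypertrophy and mineralization genes, 0 were higher and 1 lower (9.09%, against 1.55% of all genes), *BGLAP*, at 10.6 against 29.1 rpm, with a median of 0.10. The direction of *BGLAP* turned under 3 alternatives, and *SPARC* was at 20604 and 20806 rpm.

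The WNT, ERK feedback, cAMP, IGF and FGF, and hedgehog lists had 0 to 2 genes counted in each direction. Among 18 WNT genes, 2 were higher (11.1%, against 5.41% of all genes) and 0 lower, with a median of -0.14, and both are feedback inhibitors that WNT induces. *AXIN2* was at 19.8 against 1.50 rpm (log2 ratio 3.71), and *NKD1* at 10.2 against 2.93 rpm (1.80). The remaining cells had 6.17 rpm of *AXIN2*, so that its log2 ratio over all of them was 1.68. They had 4.79 rpm of *NKD1*, a ratio of 1.09, and *NKD1* was read in 14.7% of members and 15.4% of matched cells and fell to 0.14 in 1 alternative. Among 15 ERK feedback genes, 1 was higher (6.67%), the repressor *ERF* (500.6 against 235.9 rpm, 1.09), 0 were lower, and the median was 0.09. Among 12 cAMP response genes, *CREB3L1* (14.8 against 4.31 rpm, 1.78) and *SIK2* (47.8 against 22.6 rpm, 1.08) were higher (16.7%) and the phosphodiesterase *PDE4B* lower (135.1 against 298.3 rpm, -1.14, 8.33% of the list against 1.55% of all genes), with a median of 0.16. *CREB3L1* was read in 14.7% of members and 14.3% of matched cells, and its lowest log2 ratio over the alternatives was 0.17. Among 17 IGF and FGF genes, 0 were higher and 1 was lower (5.88%), *FGF2* (199.2 against 407.3 rpm, -1.03), with a median of -0.09. None of 12 hedgehog genes was counted, their median was 0.23, and *BOC* was at 123.5 against 90.4 rpm and *CDON* at 104.9 against 170.5 rpm. None of 14 proliferation genes was counted either, with a median of 0.22, *HMGB2* at 287.1 against 203.7 rpm and *CCND2* at 176.5 against 141.3 rpm. By tag the proliferation median differed widely, at -1.84, 1.87, 0.23 and 0.81 under A951 to A954.

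**Figure D3:**
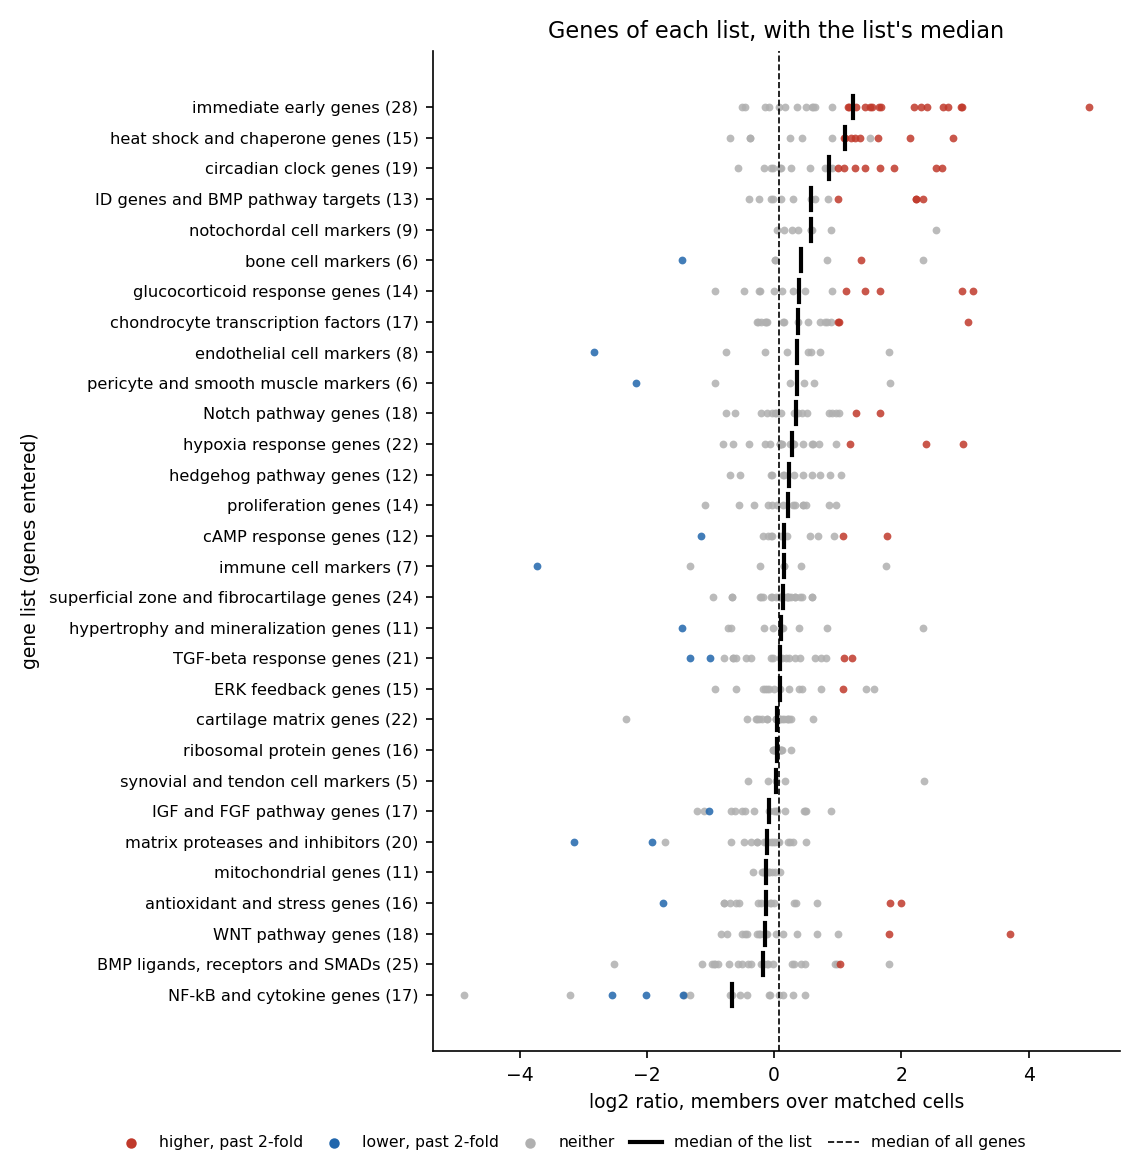
Log2 ratios of single genes (points) in 30 lists, members over matched cells, with the median of each list as a black bar and the median of all genes, 0.08, as a dashed line. Red and blue points passed 2-fold with 1 direction under all 4 tags, and the lists run from immediate early genes (median 1.23) to NF-kB and cytokine genes (median -0.66).

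Lists of markers of other cell types had at most 1 gene counted in each direction. As these lists are short, 1 lower gene was 14.3% of the immune, 12.5% of the endothelial, 16.7% of the pericyte and 16.7% of the bone markers compared, against 1.55% of all genes, and 1 higher gene 16.7% of the bone markers, against 5.41%. Of 17 immune markers in the file, 7 were read in 5% of cells, with 0 higher, 1 lower (*S100A9*, 1.45 against 19.2 rpm) and a median of 0.15. The direction of *S100A9* turned under 2 alternatives, and 0.377% of members and 2.07% of matched cells held 5 or more of its reads. Their summed level was 39.3 rpm in members and 69.5 rpm in matched cells, and 15.1, 12.3, 78.2 and 38.8 rpm in members of the 4 tags, with *CD74* the gene with the most reads in matched cells and *FCER1G* without a read in members. The pan-leukocyte marker *PTPRC* was at 0.472 and 0.425 rpm. Of 12 endothelial markers, 8 were compared, with 0 higher, 1 lower (*EGFL7*, 0.275 against 1.96 rpm) and a median of 0.36. Their sum was 256.5 rpm in members and 192.8 rpm in matched cells, of which *ERG*, also a chondrocyte factor, gave 224.9 and 156.3 rpm, while the defining *PECAM1* was at 0.634 and 0.385 rpm and *CDH5* at 0.211 and 0.148 rpm. Of 10 pericyte and smooth muscle markers, 6 were compared, with 0 higher, 1 lower (*MYH11*, 0.803 against 3.62 rpm) and a median of 0.36, a sum of 123.0 against 177.7 rpm, *TAGLN* as the gene with most reads, and *CNN1* at 0 reads in members.

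Of 10 bone markers, 6 were compared, with *SOST* higher (32.7 against 12.7 rpm, log2 ratio 1.37), *BGLAP* lower and a median of 0.42. *SOST* had a log2 ratio of 0.72 over all remaining cells and of 0.35 under A951 to 4.67 under A952. The sum of the bone markers was 339.1 against 232.5 rpm, with *CTSK* leading in matched cells, and *SP7*, the osteoblast factor, was at 0.127 and 0.108 rpm. Of 8 synovial and tendon markers, 5 were compared and none was counted, with a median of 0.03, a sum of 400.6 against 506.9 rpm led by *PDPN*, *HTRA3* at 51.6 and 55.3 rpm, and *PI16* at 0 reads in members. The 3 erythroid markers in the file were read in under 5% of cells, with a sum of 0.521 against 0.115 rpm. Of 9 notochordal markers, all compared, 0 were counted, but all 9 were above 0, from 0.046 (*NCAM1*) to 2.55 (*NRN1*, 3.83 against 0.655 rpm), with a median of 0.58. The median was 2.27 under A952, against 0.24, -0.11 and 0.012 under A951, A953 and A954. *APOE* was at 84.3 rpm in members, 76.1 rpm in matched cells and 10482 rpm in the cells with high *KRT19*, *NCAM1* at 20.8, 20.1 and 491.5 rpm, and *TBXT* at 1.18 and 0.790 rpm in members and matched cells. The notochordal sum was 450.8 rpm in the members of A952, against 172.2 rpm in its matched cells and 61.0 to 135.7 rpm in members of the other tags. A952 was the tag with most of the cells with high *KRT19* (271 of 363), followed by A951 with 76, A954 with 10 and A953 with 6. The part of such cells in the results of A952 and A951 was not tested. Without A952 the median of the immediate early genes was 1.17. Mitochondrial transcripts, a sign of damaged cells, had 0 of 11 genes counted and a median of -0.13, with *COX2* at 2709 and 3110 rpm and *ND1* at 1949 and 2071 rpm. The nuclear noncoding RNAs of a fixed list, such as *MALAT1*, are not among the genes counted in the file.

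Several of these genes were not particular to the members. In the 363 cells with high *KRT19*, *FOS* was at 2244 rpm, *JUN* at 3012 rpm, *DUSP1* at 414.4 rpm, *KLF10* at 438.1 rpm, *ID4* at 334.6 rpm, *NR1D1* at 314.9 rpm and *DNAJB1* at 1090 rpm, and *ID1* at 217.4 rpm. These levels were closer to those of members than to those of matched cells for each gene on the log2 scale. Of the lower genes, *SOD2* at 202.7 rpm, *MMP3* at 974.2 rpm and *INHBA* at 772.9 rpm were under their level in matched cells there too, while *SLC7A2* at 542.9 rpm was above it. *COL2A1* was at 1912 rpm. The cells with high *KRT19* were not matched in depth and had a median of 3854 genes detected.

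Across 10 equal bins of the score, most of the difference lay in the highest bins. *FOS* was between 83.0 and 131.5 rpm in the lowest 7 bins, 186.4 rpm in the eighth, 405.2 rpm in the ninth and 3553 rpm in members. *NR1D1* went from 44.9 to 82.2 rpm in the lowest 8 bins to 181.9 rpm in the ninth and 487.1 rpm in members, and *DNAJB1* from 76.5 to 178.7 rpm to 355.1 and 1206 rpm. On the lower side, *SOD2* was between 1105 and 1643 rpm in all 9 lower bins and at 348.6 rpm in members. *DDX21* was at 412.7 rpm in the third bin, 230.3 rpm in the ninth and 119.7 rpm in members, while *COL2A1* was between 19129 and 20915 rpm in the lower bins and at 21149 rpm in members. The lowest bins were also shallower, with a median of 2830.5 genes in the first and 4249 in the ninth, and only members were matched in depth.

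**Figure D4:**
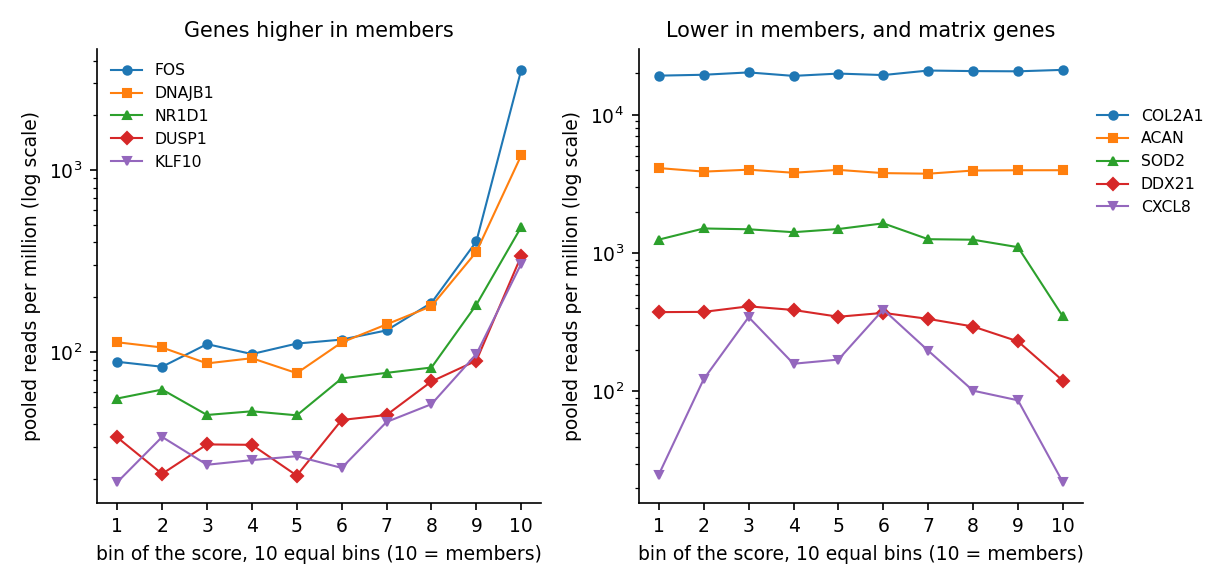
Pooled rpm (log scale) in 10 equal bins of the score (x axis, 10 being the members) for 5 genes higher in members (left) and for 3 lower and 2 matrix genes (right). *FOS* goes from 405.2 in the ninth bin to 3553 in members, *SOD2* goes from 1105 to 348.6, and *COL2A1* and *ACAN* run level.

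The members were not alike in these lists. The mean log2(rpm + 1) over the 28 immediate early genes was above the 90th percentile of matched cells in 282 members (53.1%), that over clock genes in 194 (36.5%), over ID and BMP target genes in 150 (28.2%), over heat shock genes in 153 (28.8%) and over hypoxia genes in 137 (25.8%), where the matched cells have 10% by construction. For NF-kB and cytokine genes 20 members (3.77%) were above the 90th percentile and 77 (14.5%) under the 10th, and for cartilage matrix genes 67 (12.6%) were above the 90th. Of the immediate early, clock and heat shock lists, 67 members (12.6%) were above the 90th percentile of matched cells in all 3, 134 (25.2%) in 2, 160 (30.1%) in 1 and 170 (32.0%) in none. The 10% of matched cells holds for each list alone, and no such counts over the 3 lists are given for matched cells.

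The score joins genes with different inputs, so cells were also taken as the highest 10% by *ID1* and *ID3* and, apart from that, as the highest 10% by *JUN* and *PER1*. The choices shared 217 of 531 cells, 40.9% of each. Each of the 3 resulting sets was matched to cells high by neither pair. The 314 cells high by the ID pair alone had a median log2 ratio of 0.64 over immediate early genes, the 314 high by *JUN* and *PER1* alone 0.86, and the 217 high by both 1.64. Heat shock genes went with *JUN* and *PER1*, with medians of 0.46, 1.40 and 1.34, and NF-kB and cytokine genes with -0.41, -0.93 and -0.96. Clock genes had medians of 0.33, 0.48 and 0.86, ID and BMP target genes 0.09, 0.39 and 0.86, and cartilage matrix genes -0.04, 0.05 and 0.02. Notochordal markers had medians of 1.04, 0.28 and 0.63, and proliferation genes 0.86, -0.07 and 0.20. In the cells high by the ID pair alone, both lists thus stood above immediate early genes, and the part of notochordal cells in this was not tested. *FOS*, which neither pair used, had log2 ratios of 2.54, 3.64 and 5.65 in the 3 sets.

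**Figure D5:**
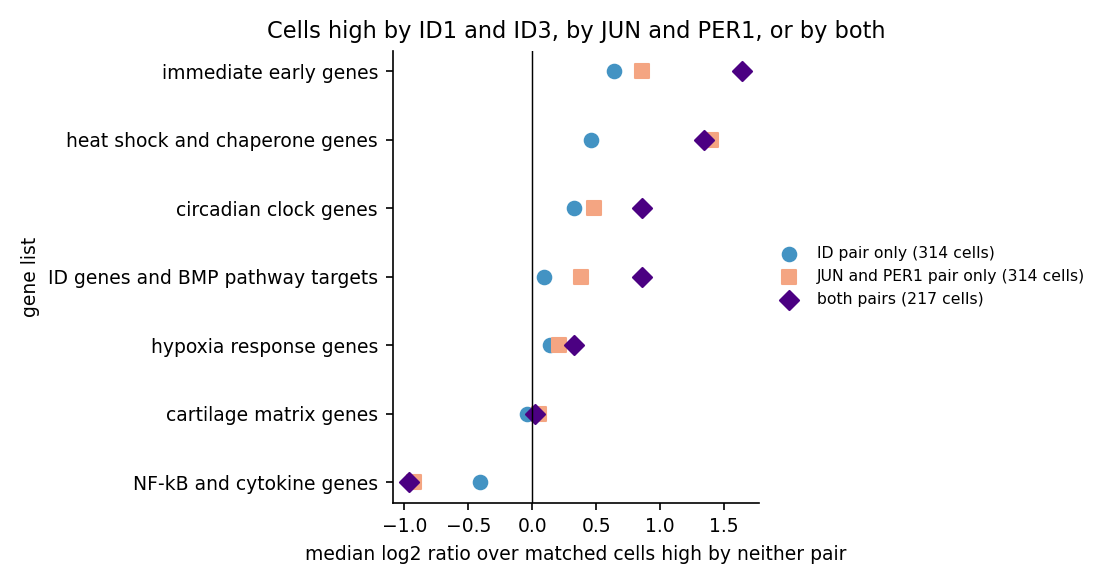
Median log2 ratio of 7 gene lists (y axis) over matched cells high by neither pair, for 314 cells high by *ID1* and *ID3* only, 314 high by *JUN* and *PER1* only and 217 high by both. Immediate early genes stand at 0.64, 0.86 and 1.64, and cartilage matrix genes near 0 in each set.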

How the data were processed

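TAS-seq reads of 1 pooled library were aligned by the authors with HISAT2 2.2.1 and assigned to genes with featureCounts 2.0.2, per the submitters' processing notes. The authors deposited raw read counts per gene and cell, with no normalization and no molecular identifiers, so PCR copies are counted and intervals cover counting error only. Reads mapping to several places were allowed, so near-identical genes can share reads. The genome build is not given in the sources used here, and no coordinates or sequences are printed. The 1358 columns of another matrix that no label names were left aside. That matrix shares 15 cell numbers with this library.

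Cells with 1 tag and under 5 *KRT19* reads were kept, and cells marked as doublets by their tags were left out with no other doublet caller. The score was the mean of log2(rpm + 1) over the 5 genes. Each member was matched to an unused remaining cell of the same tag nearest in genes detected. Genes read in at least 5% of cells entered, and a group with fewer than 3 reads was set to 3 reads. A gene was counted at 2-fold or more with 1 direction under 4 tags. Shares have exact (Clopper-Pearson) 95% binomial intervals. No cell type was called by clustering.

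Genes were named by rule as the 15 largest ratios in each direction at 20 rpm or more, with the same direction under 4 tags and in the share of cells, and, per list, up to 4 genes past 2-fold in each direction or, with none, the 2 with the highest level. Any other gene in the text was chosen after its values were seen. The members and the 32 gene lists were chosen with earlier results of these data known. The library held 24907 to 1649566 reads per cell, with a median of 198057. Calculations used Python 3.11.15, numpy 2.4.6, scipy 1.17.1 and pandas 2.3.3, and were tested on simulated data. The simulated cells of a group shared the same profile and differed only in depth and counting error. That test therefore covers the arithmetic and not how far the calls hold in real cells. Alternatives changed the matching, the measure, the filter, the share taken, the score genes, the depth, the limits on cells and the tags used.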

Additional observations from a re-analysis of the deposited data

How the results depend on the processing

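Under the 25 alternatives run, the median of the immediate early genes lay between 1.01 and 1.41 and that of the cartilage matrix genes between 0.0085 and 0.098. The share of members under each tag was recomputed with the score from thinned reads and with limits on genes and mitochondrial reads, and stayed within its interval under both. The count of higher genes, 596, was 162 by the difference of mean log2(rpm + 1), 224 with genes read in at least 20% of cells and 326 with the highest 20% of scores, and 721 to 936 when 1 tag was left out. The count of lower genes, 171, was 270 by the mean of rpm per cell, 92 with the 20% filter, 343 with the highest 5% of scores and 52 with the highest 20%, and 231 to 330 when 1 tag was left out. A filter tests fewer genes, and leaving out a tag asks for 1 direction under fewer tags. For the other settings the cause was not tested. Of 84 genes named by rule, 68 passed 2-fold, and 66 of these kept their direction in every alternative. The fold itself held less often, and 23 of the 68 reached 2-fold in every alternative, with *TGFB2* and *FOXA3* in 11, *BGLAP* and *SMAD7* in 13, *BMPER* in 15, *SIK2* in 16, *FGF2* in 17 and *DLX3*, *KDM3A* and *ERF* in 19. The 2 that changed direction were *BGLAP*, at a log2 ratio of 0.062 by log means, 0.17 with the highest 20% of scores and 0.12 with the score from thinned reads, and *S100A9*, at 0.15 with the highest 20% and 0.53 with the score without *PER1*. The median of all genes lay between 0 and 0.09 on the log2 scale in all alternatives. Keeping pairs within 50 genes of each other was chosen after seeing the data and gave 601 higher and 192 lower genes. Read depth without molecular identifiers limits the low genes, of which many were carried by few cells.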

Other observations

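Some genes on no list were more than 2-fold higher in members against the matched cells, a second set of matched cells, cells matched on reads and all remaining cells, and also by log means against the matched cells. They are named here after their values were seen. *MT1E*, a metallothionein, was at 6962 rpm in members and 3014 rpm in matched cells. *HOXA10*, a homeobox gene, was at 52.4 and 11.1 rpm, *SERTAD1* at 425.1 and 113.4 rpm, and *MIDN* at 476.9 and 123.0 rpm. *XPO1*, the main nuclear export receptor, was at 61.4 and 16.6 rpm. Counted in the same way, *GJA1*, the gap junction protein connexin 43, was lower, at 289.7 against 671.7 rpm, and so were *MET*, the receptor of hepatocyte growth factor, at 74.8 against 154.6 rpm, and *PHGDH*, an enzyme of serine synthesis, at 65.3 against 162.0 rpm. In all, 90 higher and 27 lower genes met these conditions, genes of the lists included.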
